A study of Homo sapiens with 24 samples.

Results

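The genes described here encode the nuclear subunits of the oxidative phosphorylation system. They were chosen by symbol alone: NDUFA, NDUFB, NDUFC, NDUFS or NDUFV followed by a digit, UQCR, COX4 to COX8, ATP5 and the 4 SDH genes, without symbols that hold a hyphen or end in P and digits. This gave 86 of the 23946 genes listed in the deposited tables, of which 36 belong to complex I, 4 to complex II, 9 to complex III, 17 to complex IV and 20 to complex V. NDUFA4 and its paralog NDUFA4L2 were counted with complex IV. ATP5S (coupling factor B) and ATP5IF1 (an inhibitor of the ATP synthase) follow the symbol rule but are not subunits. The genes encoded by mitochondrial DNA were not analysed here.

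RNA-seq was performed on LNCaP, a human prostate cancer cell line that responds to androgen, kept for 3 days in phenol red-free medium with charcoal-stripped serum, which removes most steroid hormone. In the ligand experiment cells received vehicle, 10 μM enzalutamide (an antiandrogen drug) or 10 nM dihydrotestosterone (DHT, a natural androgen), with 2 libraries for each ligand at 4 h and at 24 h. The 2 vehicle libraries carry no time and served both times, and 1 of them was the sum of 3 columns. The labels list 4 biological replicates of vehicle, but the column headers mark 3 columns as replicate 1 in sets named ZC1, ZC2 and ZC3, and these were taken as runs of 1 replicate, an assumption on which every comparison with vehicle rests. In the siRNA experiment cells carried a control siRNA pool (siControl) or an siRNA pool against GATA2 (siGATA2), a pioneer transcription factor, and were then given vehicle or enzalutamide at 25 μM, from 72 h after transfection and for 24 h, with 3 libraries in each of 4 groups. All groups share 1 cell line and the hormone-depleted medium, and no group received both ligands.

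Oxidative phosphorylation makes most of the ATP of a resting cell. Complexes I and II pass electrons from NADH and succinate to ubiquinone, complex III passes them on to cytochrome c, and complex IV passes them to oxygen. Complexes I, III and IV pump protons across the inner mitochondrial membrane, and complex V, the ATP synthase, uses the return flow to make ATP. Most subunits are encoded in the nucleus, and the nuclear respiratory factor NRF1, the ETS factor GABPA, YY1 and the estrogen-related receptors are known activators of many of these genes. Prostate epithelium is known for a truncated citric acid cycle that releases citrate, and prostate cancer cells for a return to citrate oxidation.

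The ligand tables held estimated counts, with totals from 38894876 to 59985287 per library, and values are given below as CPM, counts scaled to library size, after scaling by trimmed mean of M values. The siRNA tables held read counts scaled to gene length and library size (RPKM), with sums from 301300 to 317933 per library and unknown depth. A member was called changed at an adjusted p below 0.05 over all genes tested, in edgeR for the ligand experiment and in limma on log2(RPKM + 0.1) for the siRNA experiment. Differences are given on that log2 scale with the standard error after the ± sign, and 2 or 3 values joined by commas are single libraries in replicate order. The siRNA pool lowered its target: GATA2 stood at 83.8, 77 and 86.1 RPKM in siControl cells with vehicle and at 54.3, 53.4 and 46.6 RPKM in siGATA2 cells with vehicle, without overlap (log2 difference -0.68 ± 0.059, adjusted p = 3.12e-06). Under enzalutamide GATA2 stood at 128, 132 and 128 RPKM in siControl and 60.1, 64.7 and 61.5 RPKM in siGATA2 cells. KLK3, the gene of prostate-specific antigen, rose by 3.04 and fell by 1.22 on the log2 scale after 24 h of DHT and of enzalutamide. It differed by -5.04 between siGATA2 and siControl cells with vehicle. All 8 prostate luminal markers examined were detected in both experiments. Among markers of other cells, PTPRC (leukocytes) reached at most 0.101 CPM, KRT5 (basal cells) 0.0396 CPM and DES (muscle) 0.0203 CPM. CD68, also listed for leukocytes, reached 2.84 CPM and COL1A1 reached 28.5 CPM. In the siRNA experiment CD68 reached 12.2 RPKM and COL1A1 16.3 RPKM. In bulk RNA a lower value can mean fewer cells of a kind or less RNA per cell, and these cannot be told apart.

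Of the 86 members, 82 were above 1 RPKM in siControl cells with vehicle, with a median of 83.9 RPKM. Members of complexes IV and V led: ATP5F1B, the catalytic β subunit of the ATP synthase, stood at 895 ± 10.3 RPKM (SD, n = 3), above 99.9% of all genes listed. COX7C, a small membrane subunit of cytochrome c oxidase, followed at 512 ± 7.5 and ATP5F1A, the α subunit, at 375 ± 9.33. The intervals of COX8A (362 ± 25.1) and COX6B1 (350.3 ± 17) overlap each other and that of ATP5F1A, so their order is not settled. Among the members above 1 RPKM, the medians were 65.7 RPKM for complex I, 46.5 for complex II, 111 for complex III, 135 for complex IV and 110.2 for complex V. Within complex I, levels ranged from 8.14 ± 0.185 RPKM for NDUFA10 to 249.6 ± 23.4 RPKM for NDUFA13. The 4 subunits of succinate dehydrogenase lay closer together, from 22.9 ± 0.547 RPKM for SDHC, a membrane anchor, to 54 ± 1.59 RPKM for SDHB, the iron-sulfur subunit.

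**Figure D1:**
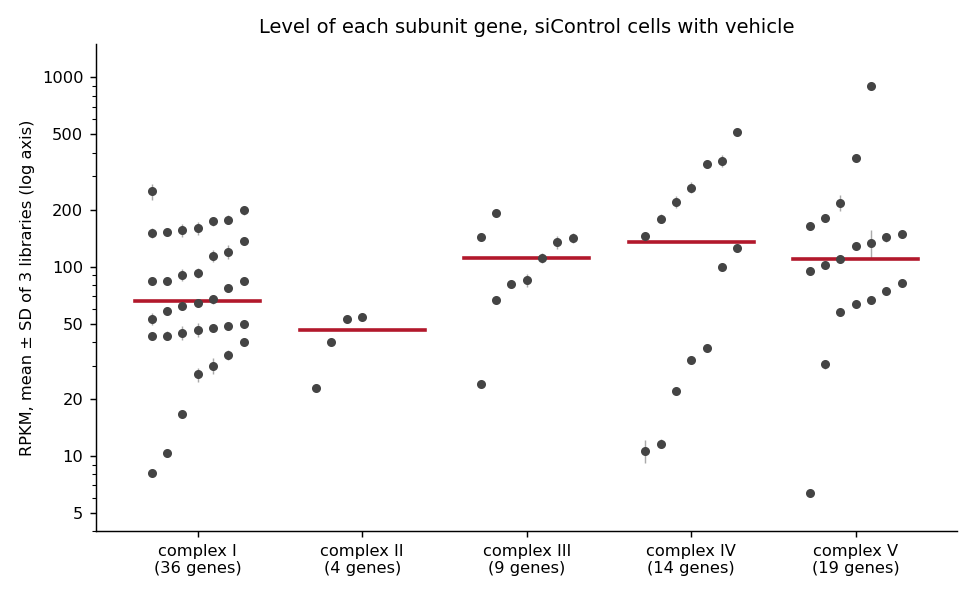
Level in RPKM (log axis) of the 82 members above 1 RPKM in siControl cells with vehicle, grouped by complex. Points are means of 3 libraries with SD bars, and red lines are medians, which run from 46.5 RPKM in complex II to 135 RPKM in complex IV.

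Of the isoforms known for other tissues, COX4I2, COX8C and COX6B2 were near absence. COX4I2, the lung and hypoxia form of subunit 4, was listed at 0 in all 12 siRNA libraries, and COX8C and COX6B2, known from testis, did not exceed 0.17 RPKM in any library. ATP5MGL, a copy of ATP5MG, stayed at or below 0.11 RPKM. These 4 were not tested in the ligand experiment, and COX4I2 was not tested in the siRNA experiment, which left 82 and 85 members. NDUFA4L2, a paralog of NDUFA4 known as a hypoxia target, was expressed at 12, 9.1 and 10.9 RPKM in siControl cells with vehicle. COX7B2, also of complex IV, was expressed at 11, 11.5 and 12.3 RPKM in the same libraries. UQCRHL, an intronless near copy of UQCRH, was listed at 127, 129 and 147 RPKM beside 198, 190.2 and 191 RPKM for UQCRH. Reads from such copies can be split between them, so the values of UQCRHL and UQCRH are uncertain. UQCRHL was at 109 and 108 CPM with vehicle, 95.9 and 100 CPM with enzalutamide for 24 h (log2 difference -0.15 ± 0.042, adjusted p = 0.018) and 118 and 117 CPM with DHT for 24 h (log2 difference 0.12 ± 0.042, adjusted p = 0.0342), and both calls were lost when single libraries were left out. Other members, NDUFB4 among them, have processed pseudogenes, and how reads shared with these were assigned is not given in the sources used here.

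Promoter sequence from RefSeq (GRCh38.p14, 250 bases before to 50 after the start) matched 70 members, 66 by symbol and 4 by an older name. Motifs were searched on both strands as letters. The NRF1 core GCGCANGCGC was in 24.3% of the 70 member windows and in 6.28% of 27305 windows of all genes. The ETS core CCGGAAG was in 28.6% against 10.7%, the YY1 core ATGGCGG in 27.1% against 5.72% and the estrogen-related receptor half-site AAGGTCA in 12.9% against 3.97%. The Sp1 box GGGCGG was in 60% against 44.6% and CCAAT in 34.3% against 35.7%. The GATA site AGATAA was in 8.57% against 10.5%. A match is a description of letters, and no binding was measured.

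The 250 bases before the start are shown for 4 members on which the results below turn, 5′ to 3′ on the gene's strand, with matches to the motifs above in capitals. ATP5MC1, a c-ring gene of the ATP synthase that answered both ligands, holds CCAAT or its complement 4 times. COX7A2L, which rose with enzalutamide, holds it once. NDUFB4, a complex I gene that rose most in siGATA2 cells, holds the NRF1 core 2 times and an estrogen-related receptor half-site. UQCRFS1, the Rieske iron-sulfur protein gene of complex III, holds 2 Sp1 boxes and an NRF1 core.
ATP5MC1 (chr17:48892537-48892786, + strand): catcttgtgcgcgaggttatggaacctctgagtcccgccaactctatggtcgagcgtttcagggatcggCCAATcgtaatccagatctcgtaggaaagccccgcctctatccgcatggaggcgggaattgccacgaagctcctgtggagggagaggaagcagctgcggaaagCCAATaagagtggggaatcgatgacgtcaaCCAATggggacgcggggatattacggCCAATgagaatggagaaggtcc
COX7A2L (chr2:42361218-42361467, - strand): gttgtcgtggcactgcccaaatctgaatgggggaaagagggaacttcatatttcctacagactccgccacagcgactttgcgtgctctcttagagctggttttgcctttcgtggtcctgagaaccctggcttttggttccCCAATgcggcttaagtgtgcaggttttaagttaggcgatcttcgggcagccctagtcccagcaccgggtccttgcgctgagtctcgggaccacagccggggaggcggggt
NDUFB4 (chr3:120596086-120596335, + strand): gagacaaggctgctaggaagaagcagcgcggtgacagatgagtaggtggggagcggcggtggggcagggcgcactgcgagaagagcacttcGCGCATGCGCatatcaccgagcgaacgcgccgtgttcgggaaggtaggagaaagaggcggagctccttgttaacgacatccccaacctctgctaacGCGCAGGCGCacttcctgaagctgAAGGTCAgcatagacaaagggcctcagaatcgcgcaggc
UQCRFS1 (chr19:29213152-29213401, - strand): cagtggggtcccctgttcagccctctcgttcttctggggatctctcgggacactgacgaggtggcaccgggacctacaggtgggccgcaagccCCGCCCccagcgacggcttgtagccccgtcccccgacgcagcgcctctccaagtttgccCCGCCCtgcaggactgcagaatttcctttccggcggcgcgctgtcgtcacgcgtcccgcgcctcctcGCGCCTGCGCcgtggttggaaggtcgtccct

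At 4 h few members were called. With enzalutamide 1 of 82 was called in edgeR, against 13.6% of all 15555 genes tested, of which 6.94% were higher and 6.68% lower. This was NDUFV3, an accessory subunit of the complex I NADH-oxidizing arm, at 47.1 and 48.2 CPM with vehicle and 44.4 and 38.5 CPM with enzalutamide (log2 difference -0.20 ± 0.062, adjusted p = 0.0481). The groups did not overlap, but no member was called when a replicate block was added or when either vehicle library was left out. With DHT for 4 h edgeR called 0 of 82, against 6.77% of all genes (4.66% higher, 2.11% lower). DESeq2 also called 0, and 6 members had an unadjusted p below 0.05. Between DHT and enzalutamide at 4 h edgeR and DESeq2 each called 0 of 82, against 15.8% of all genes (8.49% higher, 7.28% lower), and 2 members had an unadjusted p below 0.05. At 4 h the DHT libraries came from set ZC1 and the enzalutamide libraries from ZC2, so ligand and set cannot be told apart there. The groups did not overlap for 20 of 82 members with enzalutamide (49.8% of all genes), for 41 with DHT (52.3%) and for 28 between the ligands (54.8%). By the rule of the study, a change over 2-fold with an unadjusted p below 0.05, no member was called at 4 h, where 0.752%, 1.2% and 1.83% of all genes were. The highest and lowest member effects at 4 h were 0.24 and -0.20 on the log2 scale for enzalutamide, and 0.14 and -0.17 for DHT.

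After 24 h of 10 μM enzalutamide, 21 members were lower and 5 higher than with vehicle. The 21 were spread over complexes I (10), II (1), III (3) and V (7), while complex IV had 3 higher and none lower. All effects were small, from -0.27 to 0.49 on the log2 scale. By share, 31.7% of the 82 members were called against 33.4% of all genes, 25.6% lower against 17% and 6.1% higher against 16.4%. The median was -0.046 for the members and 0.015 for all genes. The groups did not overlap for 54 of 82 members, against 67.7% of all genes, and 2.89% of all genes but no member passed the 2-fold rule. With the 4 vehicle columns as separate samples 36 members were called, 5 higher and 31 lower. The count fell to 14 without either enzalutamide 24 h library. Fewer members were also called when vehicle was limited to the column from the set of those libraries, marked ZC3 in the column headers. That fit drops vehicle library 2 and leaves 1 vehicle library of 1 column, so its count is not given.

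In complex I the largest decrease was that of NDUFA6, an accessory subunit of the matrix arm. It stood at 47.7 and 47.9 CPM with vehicle and 39.6 and 39.6 CPM with enzalutamide (log2 difference -0.27 ± 0.042, adjusted p = 0.0003), and the groups did not overlap. The call was lost with the ZC3 column as the only vehicle library. Of the 7 nuclear core subunits of complex I, 3 fell and none rose, and of the 29 accessory subunits 7 fell and 1 rose.

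In complex II only SDHA, the flavoprotein that oxidizes succinate, was called. Its values were 161 and 165 CPM with vehicle and 139 and 136 CPM with enzalutamide (log2 difference -0.25 ± 0.039, adjusted p = 0.000305). SDHB stood at 65.4 and 66.5 against 64.1 and 65.2 CPM, SDHC at 240.1 and 233 against 244 and 244 CPM and SDHD at 99.8 and 94.2 against 93.7 and 92.1 CPM, and none of these passed the test.

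In complex III UQCRFS1 fell from 159 and 159 CPM to 137 and 134 CPM (log2 difference -0.23 ± 0.033, adjusted p = 0.000147). UQCR10, a small membrane subunit, went from 67.3 and 69.1 CPM to 63.9 and 58.6 CPM (log2 difference -0.15 ± 0.048, adjusted p = 0.0254). The UQCR10 call was lost with the ZC3 column as the only vehicle library and without vehicle library 2 or enzalutamide library 2. Each of these fits leaves 1 library in a group. In complex V ATP5MC1 fell from 50.1 and 48.3 CPM to 43.4 and 42.5 CPM (log2 difference -0.20 ± 0.044, adjusted p = 0.00413). The catalytic subunit ATP5F1B went from 1579 and 1556 CPM to 1448 and 1418 CPM (log2 difference -0.13 ± 0.027, adjusted p = 0.00236). Neither pair of groups overlapped.

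The members that rose include 2 that are not ordinary subunits. COX7A2L, also known as SCAF1, is a relative of COX7A2 that helps to join complexes III and IV into supercomplexes. It stood at 84.8 and 78.9 CPM with vehicle and 103 and 101.5 CPM with enzalutamide (log2 difference 0.32 ± 0.046, adjusted p = 0.000172), and both treated libraries were above both vehicle libraries. NDUFA4L2 rose from 7.76 and 8.4 CPM to 10.9 and 11.7 CPM (log2 difference 0.49 ± 0.086, adjusted p = 0.000755). COX7A2 itself went from 99.3 and 94.7 CPM to 114 and 113 CPM (log2 difference 0.22 ± 0.052, adjusted p = 0.00538). ATP5S went from 19.7 and 17.9 CPM to 22.7 and 22.8 CPM (log2 difference 0.27 ± 0.062, adjusted p = 0.00466), a call lost without vehicle library 2 (adjusted p = 0.0556).

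After 24 h of DHT, 15 members were higher and 2 lower than with vehicle. By share, 20.7% of the members were called against 50% of all genes. Of the members 18.3% were higher against 26.9% of all genes, and 2.44% were lower against 23.2%. The median was 0.020 for the members and 0.0013 for all genes. Without overlap between the groups were 38 members, against 73.4% of all genes, and 5.86% of all genes but no member passed the 2-fold rule. The direction depended on the scaling: with library size alone in place of TMM, 4 members were higher and 13 lower. The count fell to 9 without DHT 24 h library 2. The DHT libraries came from different sets, library 1 from ZC2 and library 2 from ZC3. The vehicle columns of those sets are both of replicate 1, so limiting vehicle to them drops vehicle library 2 and leaves 1 vehicle library. In that fit most called members were higher, and its counts are not given. With the 4 vehicle columns as separate samples 17 were higher and 8 lower.

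The increase was largest for ATP5MC1, which stood at 50.1 and 48.3 CPM with vehicle and 61.7 and 62.8 CPM with DHT (log2 difference 0.34 ± 0.043, adjusted p = 2.53e-05). With library size alone the ATP5MC1 effect was still 0.28. UQCRFS1 rose from 159 and 159 CPM to 177 and 175 CPM (log2 difference 0.14 ± 0.033, adjusted p = 0.00266). In complex I the largest increase was that of NDUFB10, an accessory subunit of the membrane arm, at 125 and 135 CPM with vehicle and 153 and 164 CPM with DHT (log2 difference 0.29 ± 0.054, adjusted p = 0.000601). Next came NDUFS8, a core iron-sulfur subunit, at 58.6 and 64.1 CPM and 69.8 and 72.7 CPM (log2 difference 0.22 ± 0.057, adjusted p = 0.00656), and neither pair of groups overlapped. NDUFB10, NDUFS8, NDUFB3 and COX7A2 are named here because of their values.

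The largest change of any member with DHT was a decrease. NDUFB4, an accessory subunit of the membrane arm, fell from 299.6 and 328 CPM with vehicle to 196 and 217 CPM (log2 difference -0.60 ± 0.055, adjusted p = 1.05e-06). With enzalutamide for 24 h it stood at 292 and 292 CPM and was not called. The other decrease was SDHC, from 240.1 and 233 CPM to 222 and 211 CPM (log2 difference -0.13 ± 0.038, adjusted p = 0.0126), whereas SDHD went from 99.8 and 94.2 CPM to 108 and 105 CPM (log2 difference 0.13 ± 0.045, adjusted p = 0.0288). Both SDH calls were lost without some single libraries (adjusted p up to 0.112 for SDHC and 0.186 for SDHD), and SDHD was not called with library size alone.

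The comparisons with vehicle share the vehicle libraries, so DHT was compared with enzalutamide directly at 24 h. With DHT 40 members were higher and 10 lower than with enzalutamide. The higher ones were 18 of 36 in complex I, 3 of 4 in complex II, 6 of 9 in complex III, 3 of 14 tested in complex IV and 10 of 19 tested in complex V. Complex IV was the only one with more members lower (5) than higher (3), and its median was -0.040 against 0.10 in complex I and 0.11 in complex III. By share, 61% of the members were called against 64.9% of all genes, 48.8% higher against 31.3% and 12.2% lower against 33.6%. The median was 0.097 for the members and -0.033 for all genes. Without overlap were 67 members, against 83.2% of all genes, and 11.8% of all genes but no member passed the 2-fold rule. With library size alone the split was 23 higher and 18 lower.

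The difference was largest upward for ATP5MC1 (log2 difference 0.54 ± 0.044, adjusted p = 1.73e-07), NDUFB10 (log2 difference 0.43 ± 0.054, adjusted p = 1.14e-05) and NDUFA6 (log2 difference 0.43 ± 0.042, adjusted p = 1.13e-06). NDUFA6 stood at 52.4 and 54.1 CPM with DHT and 39.6 and 39.6 CPM with enzalutamide, with the vehicle libraries between them. UQCRFS1 (log2 difference 0.37 ± 0.033, adjusted p = 3.76e-07) showed the same order, with vehicle between the ligands. Downward the difference was largest for NDUFA4L2 (log2 difference -0.68 ± 0.088, adjusted p = 1.48e-05), at 7.35 and 6.68 CPM with DHT, then NDUFB4 (log2 difference -0.50 ± 0.055, adjusted p = 3.08e-06) and COX7A2L (log2 difference -0.29 ± 0.046, adjusted p = 9.14e-05). SDHA (log2 difference 0.22 ± 0.039, adjusted p = 0.00021) and SDHD (log2 difference 0.19 ± 0.045, adjusted p = 0.00199) were higher and SDHC (log2 difference -0.17 ± 0.038, adjusted p = 0.00141) was lower with DHT. SDHB was higher by 0.10 at an adjusted p of 0.0436. That call ended with library size alone, without a filter on low counts, with a replicate block and with the 4 vehicle columns as separate samples. It was also lost without some single libraries.

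**Figure D2:**
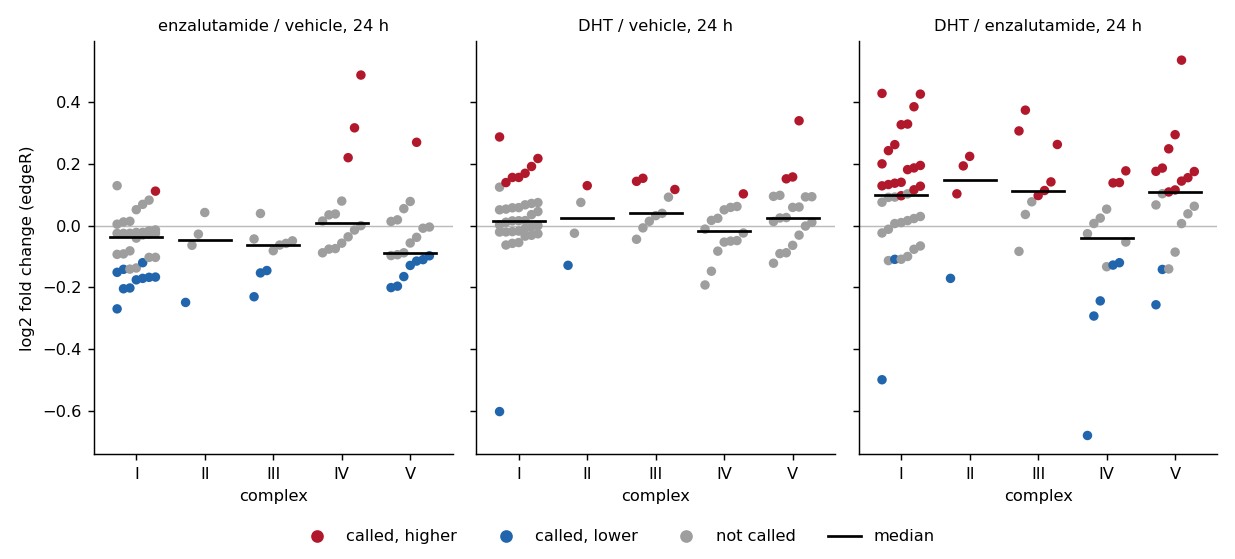
Log2 fold change in edgeR of the 82 tested members by complex at 24 h, for enzalutamide against vehicle, DHT against vehicle and DHT against enzalutamide. Each point is a gene, red and blue points were called higher and lower, grey points were not called and black lines are medians. With enzalutamide 21 members are blue and 5 red, and in the direct comparison 40 are red and 10 blue.

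In siControl cells 25 μM enzalutamide for 24 h was accompanied by lower levels of 22 and higher levels of 5 of 85 tested members. The lower ones were 10 in complex I, 1 in complex II, 2 in complex III, 1 in complex IV and 8 in complex V. By share, 31.8% of the members were called against 42.1% of all 20369 genes tested, 25.9% lower against 24.4% and 5.88% higher against 17.7%. The medians were -0.021 for the members and -0.023 for all genes. Of the members, 38 had no overlap between the groups, against 50.4% of all genes, and 2.13% of all genes but no member passed the 2-fold rule. When each library was centred on its median the split turned to 18 higher and 14 lower, so the direction of small changes rests on the scaling.

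ATP5MC1 had the largest called decrease, from 114, 106 and 111 RPKM to 84.7, 86.4 and 76.9 RPKM (log2 difference -0.42 ± 0.043, adjusted p = 2.98e-05), and the groups did not overlap. NDUFB3, an accessory subunit of the membrane arm, went from 40.6, 44.7 and 44.5 RPKM to 37.5, 34.5 and 33.7 RPKM (log2 difference -0.30 ± 0.054, adjusted p = 0.0012). COX7B, a small subunit of complex IV, fell from 31.5, 31.8 and 32.7 RPKM to 26.8, 25.6 and 28.3 RPKM (log2 difference -0.25 ± 0.046, adjusted p = 0.00126). SDHC was the only complex II gene called, at 23.1, 22.3 and 23.3 RPKM with vehicle and 20.9, 21.8 and 21.5 RPKM with enzalutamide (log2 difference -0.098 ± 0.027, adjusted p = 0.0127). UQCRFS1 went from 67.2, 67.8 and 64.9 RPKM to 63.1, 57.5 and 60.8 RPKM (log2 difference -0.14 ± 0.039, adjusted p = 0.0133). With centred libraries the calls of SDHC, UQCRFS1, NDUFS3 and ATP5F1B were lost. Those of ATP5F1B and NDUFS3 were also lost with a replicate block. With 1 library left out at a time, the ATP5F1B call was lost in 9 fits and the NDUFS3 call in 6.

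COX7A2L again rose, from 21.3, 22.2 and 22.7 RPKM to 31.3, 31.7 and 32.5 RPKM (log2 difference 0.53 ± 0.027, adjusted p = 1.96e-07), a ratio of 1.44 with no overlap between the groups. ATP5MC2, another c-ring gene, rose from 82.1, 78.9 and 86.1 RPKM to 97.8, 100.9 and 97.6 RPKM (log2 difference 0.26 ± 0.041, adjusted p = 0.000476). NDUFS4, an accessory subunit known for its part in Leigh syndrome, rose from 38.3, 40.8 and 41.7 RPKM to 47.5, 46.5 and 49.7 RPKM (log2 difference 0.25 ± 0.039, adjusted p = 0.000468). ATP5S rose by 0.21 (adjusted p = 0.0148), and the effect was 0.18 to 0.23 with each library left out, although without siControl vehicle library 1 it was not called (adjusted p = 0.057). The call for COX6B2 concerned levels of at most 0.17 RPKM, close to the added 0.1, and was lost without any of 4 single libraries.

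The ligand and siRNA experiments used different doses and share no library. Of the 21 members lower with 10 μM enzalutamide, 12 (57.1%) were also among the 22 lower with 25 μM in siControl cells (54.5%). They include 5 genes of complex V (ATP5F1A, ATP5F1B, ATP5F1C, ATP5MC1 and ATP5PF), UQCR10 and UQCRFS1 of complex III, and NDUFA6 and NDUFA8 of complex I. The ATP5F1B call with 25 μM was lost in most fits with 1 library left out. Of the 5 members higher in each, ATP5S and COX7A2L were in both (40% of each), and no member was called in opposite directions. These overlaps were not counted over all genes, so no background share stands beside them. NDUFA4L2, higher with 10 μM, was at 12, 9.1 and 10.9 RPKM with vehicle and 6.2, 6.43 and 8.48 RPKM with 25 μM and was not called.

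In siGATA2 cells limma called 0 of 85 members for enzalutamide against vehicle, where 0.412% of all genes were called. Each alternative run also gave 0, and 5 members had an unadjusted p below 0.05. Of the members, 12 had no overlap between the groups, against 16.3% of all genes, and 0.191% of all genes passed the 2-fold rule. The test of the difference between the enzalutamide effects in siGATA2 and siControl cells called 16 members, 12 upward and 4 downward, or 18.8% against 25.8% of all genes (15% upward, 10.8% downward). A difference over 2-fold was found for no member and 1.81% of all genes. The count fell to 7 without siGATA2 enzalutamide library 1 and to 10 (8 upward, 2 downward) with a replicate block. With centred libraries it was 7 upward and 4 downward.

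Among these, COX7A2L had the lowest adjusted p. It stood at 21.6, 22.1 and 21.9 RPKM in siGATA2 cells with vehicle and 22.8, 22.2 and 22.1 RPKM with enzalutamide, and the effects differed by -0.49 ± 0.037, adjusted p = 1.34e-05. ATP5MC1 stood at 78.5, 78.5 and 81.8 RPKM and 78.4, 79.9 and 77.3 RPKM, and its effects differed by 0.40 ± 0.061, adjusted p = 0.00108. The ATP5MC1 groups overlapped in siGATA2 cells, whereas each COX7A2L value with enzalutamide was above each with vehicle, by far less than in siControl cells. NDUFB3, COX7B and ATP5MF, a membrane subunit of the ATP synthase, differed by 0.38, 0.30 and 0.28, all fallen in siControl cells. Reads of ATP5MF can be shared with a read-through transcript to the neighbouring PTCD1 gene.

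Silencing of GATA2 alone, in vehicle, was accompanied by more members higher than lower in every complex: 18 against 3 in complex I, 2 against 1 in complex II, 5 against 1 in complex III, 9 against 0 in complex IV and 9 against 3 in complex V. In all 43 were higher and 8 lower. By share, 60% of the 85 members were called against 55.6% of all genes, 50.6% higher against 24.2% and 9.41% lower against 31.4%. The median was 0.13 for the members and -0.027 for all genes. Under enzalutamide 46 were higher and 6 lower, or 61.2% called against 54.5% of all genes (26.3% higher, 28.1% lower), with medians of 0.13 and -0.0026. The groups did not overlap for 55 members in vehicle, against 58.9% of all genes, and for 57 under enzalutamide, against 61.1%. The comparisons in vehicle and under enzalutamide share no library. Of the 43 and 46 higher members, 35 were in both (81.4% and 76.1%), and of the 8 and 6 lower ones 3 were (37.5% and 50%), ATP5F1B and UQCRB among them. The overlap over all genes was not counted. ATP5PF, in the stalk of the ATP synthase, was lower in vehicle (-0.19) and higher under enzalutamide (0.14). The summed level of the 8 prostate luminal markers differed between the groups as well, but its markers went different ways. Its mean was 1542 RPKM in siControl cells with vehicle, 969 with enzalutamide, and 888 and 859 in siGATA2 cells with vehicle and enzalutamide, and its part in these results was not tested. The fall in vehicle lay mostly in KLK3, with means of 791 in siControl and 24.1 RPKM in siGATA2 cells. The keratin genes KRT8 (109 and 195 RPKM) and KRT18 (116 and 171 RPKM) and FOLH1 (147 and 199 RPKM) were higher in siGATA2 cells, and FOXA1 had means of 139 and 142 RPKM. The 14 markers of other cells, mostly COL1A1 and CD68, summed to means of 14, 17.4, 26.4 and 25.97 RPKM in the same order.

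NDUFB4 had the largest increase of all members. It stood at 145, 145 and 162 RPKM in siControl and 336, 347 and 354 RPKM in siGATA2 cells with vehicle (log2 difference 1.20 ± 0.046, adjusted p = 6.87e-09), a ratio of 2.3. Under enzalutamide it stood at 138, 137 and 142 RPKM and 314, 310.3 and 332 RPKM (log2 difference 1.20 ± 0.046, adjusted p = 7.42e-09), and in both comparisons every siGATA2 library was above every siControl library. It was the only member past the 2-fold rule of the study, in both comparisons, where 5.64% and 5.78% of all genes were. NDUFB3 rose by 0.34 in vehicle and by 0.72 under enzalutamide. NDUFS3, a core subunit of the complex I matrix arm, rose from 62.3, 64.2 and 65.4 RPKM to 80.3, 81.9 and 81 RPKM with vehicle (log2 difference 0.34 ± 0.024, adjusted p = 5.07e-07).

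In complex II the subunits were not in step between siControl and siGATA2 cells with vehicle. SDHA rose from 53.7, 51.4 and 53.8 RPKM to 67.4, 71.4 and 67 RPKM (log2 difference 0.37 ± 0.036, adjusted p = 6.52e-06) and SDHC from 23.1, 22.3 and 23.3 RPKM to 27.6, 28.2 and 26.7 RPKM (log2 difference 0.26 ± 0.027, adjusted p = 9.73e-06). SDHD, the other membrane anchor, fell from 39.4, 42 and 38.9 RPKM to 35.5, 33.7 and 35.3 RPKM (log2 difference -0.20 ± 0.040, adjusted p = 0.00126), and SDHB stood at 52.6, 53.5 and 55.7 against 53.7, 51.7 and 54.5 RPKM and was not called. Under enzalutamide SDHA (0.38) and SDHC (0.36) rose as well, and SDHD was not called.

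In complex III, with vehicle, UQCRQ rose from 81, 77.3 and 85.7 RPKM in siControl cells to 95.9, 97.3 and 98.3 RPKM in siGATA2 cells (log2 difference 0.26 ± 0.037, adjusted p = 0.00013). UQCRB fell from 23.1, 24.5 and 24.3 RPKM to 18.1, 20.5 and 21 RPKM in the same comparison (log2 difference -0.27 ± 0.065, adjusted p = 0.00429). Both are small subunits of the complex. UQCRFS1 was not called in vehicle and rose by 0.11 under enzalutamide, an adjusted p of 0.0334 that became 0.0553 with a replicate block. In complex IV none fell in vehicle, and COX7A2L fell under enzalutamide (log2 difference -0.51 ± 0.027, adjusted p = 6.34e-08), where the siControl libraries were raised.

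Complex V held the largest decrease in vehicle. ATP5F1B, the most abundant member, went from 906, 887 and 891 RPKM in siControl cells to 580.3, 587 and 626 RPKM in siGATA2 cells with vehicle (log2 difference -0.58 ± 0.043, adjusted p = 8.91e-07), without overlap. Under enzalutamide it was lower as well (log2 difference -0.48 ± 0.043, adjusted p = 4.24e-06). Its partner in the catalytic head, ATP5F1A, moved the other way with vehicle, from 385, 367 and 372 RPKM in siControl cells to 419.7, 424 and 440.3 RPKM in siGATA2 cells (log2 difference 0.19 ± 0.040, adjusted p = 0.00196).

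**Figure D3:**
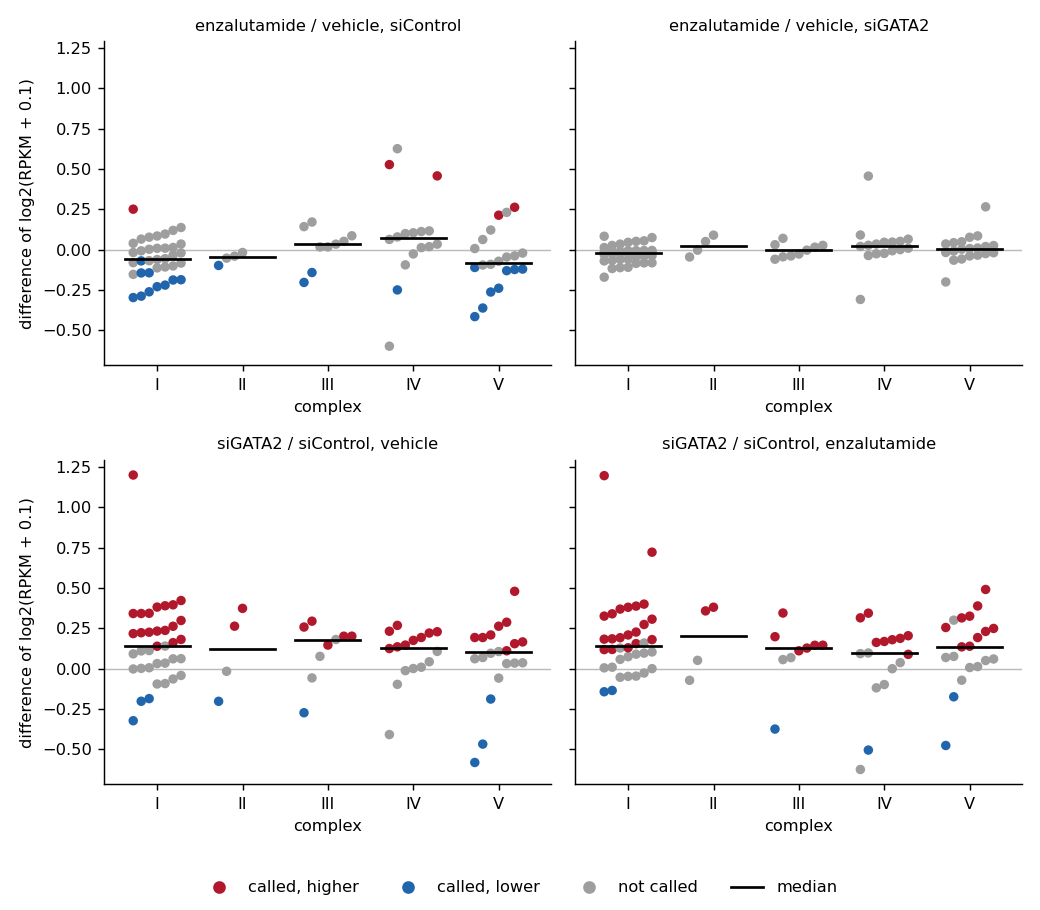
Difference of log2(RPKM + 0.1) of the 85 tested members by complex, for enzalutamide against vehicle in siControl and siGATA2 cells and for siGATA2 against siControl with vehicle and under enzalutamide. Each point is a gene, red and blue points were called higher and lower in limma, grey points were not called and black lines are medians. The siGATA2 cells show no called enzalutamide effect, and the highest point in both lower panels is NDUFB4, near 1.20.

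The genes ATP5MC1, ATP5MC2 and ATP5MC3 encode the same mature c-ring protein behind different import sequences, and they did not move together. With 25 μM enzalutamide in siControl cells ATP5MC1 (-0.42) and ATP5MC3 (log2 difference -0.24 ± 0.037, adjusted p = 0.000459) fell while ATP5MC2 rose. With siGATA2 in vehicle ATP5MC1 fell from 114, 106 and 111 RPKM to 78.5, 78.5 and 81.8 RPKM (log2 difference -0.47 ± 0.043, adjusted p = 4.75e-06), and ATP5MC2 (log2 difference 0.19 ± 0.041, adjusted p = 0.00221) and ATP5MC3 (log2 difference 0.11 ± 0.037, adjusted p = 0.0275) rose. Between DHT and enzalutamide at 24 h, ATP5MC1 and ATP5MC3 (log2 difference 0.19 ± 0.041, adjusted p = 0.0014) were higher and ATP5MC2 (log2 difference -0.14 ± 0.034, adjusted p = 0.00223) was lower with DHT.

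**Figure D4:**
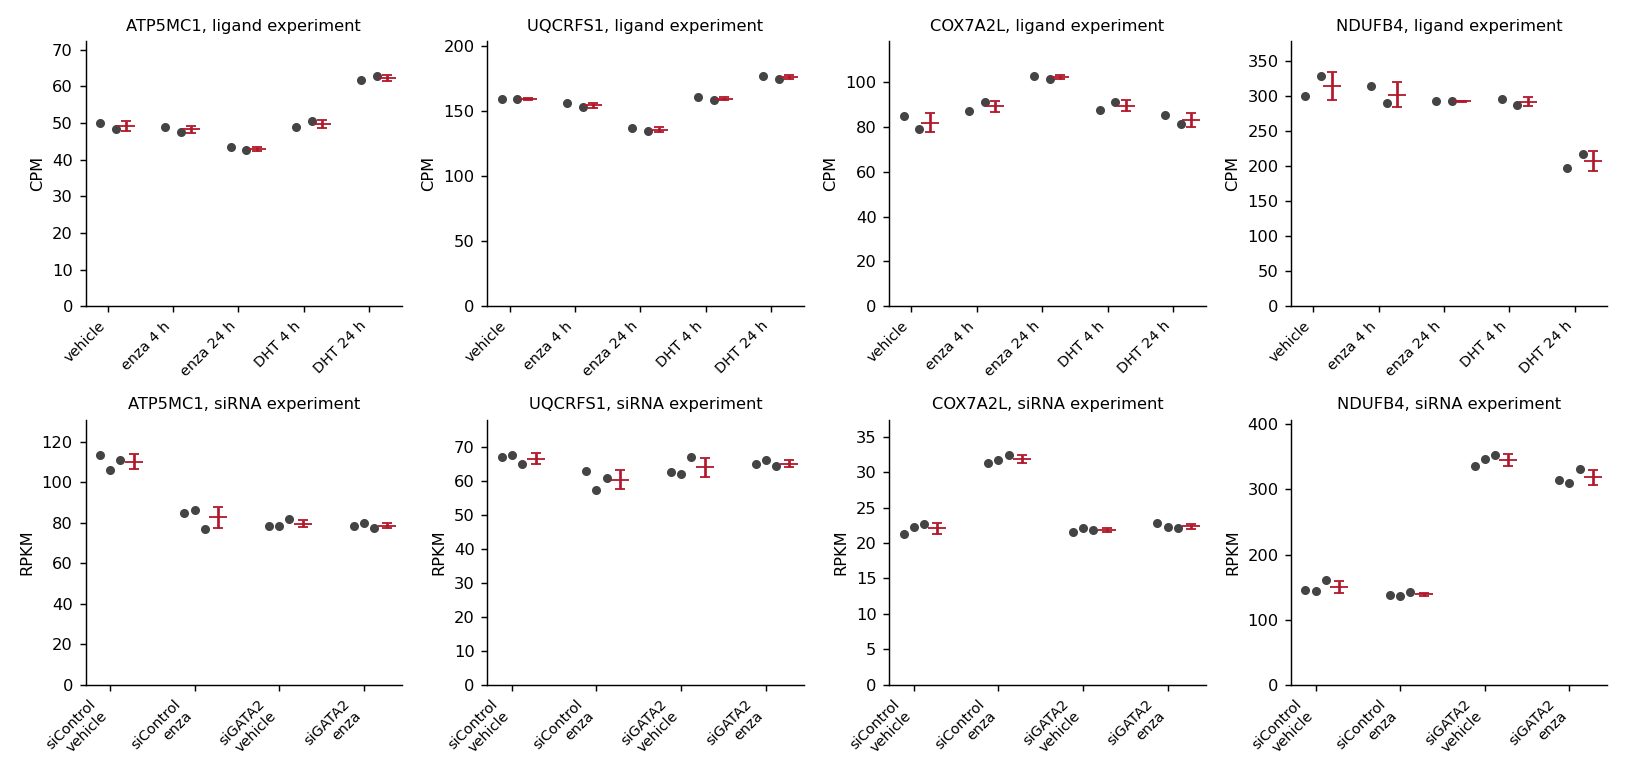
Level of ATP5MC1, UQCRFS1, COX7A2L and NDUFB4 in every library, in CPM for the ligand experiment (upper row) and RPKM for the siRNA experiment (lower row), with axes from 0. Points are libraries and red marks are means with SD. ATP5MC1 is at 61.7 and 62.8 CPM with DHT for 24 h and 43.4 and 42.5 CPM with enzalutamide, COX7A2L is raised in siControl cells with enzalutamide to 31.3 to 32.5 RPKM, and NDUFB4 is at 310.3 RPKM or above in every siGATA2 library.

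Regulators of these genes were measured in the same libraries. Of 15 regulators, 7 were higher and none lower with DHT for 24 h, and 2 were higher and 4 lower with enzalutamide for 24 h, or 46.7% called against 50% of all genes and 40% against 33.4%. At 4 h of enzalutamide 2 were higher and 4 lower, or 40% against 13.6%. In siGATA2 cells 3 were higher and 9 lower with vehicle (80% against 55.6%), and 6 higher and 7 lower under enzalutamide (86.7% against 54.5%). TFAM, the packaging and transcription factor of mitochondrial DNA, was at 147 and 138 CPM with vehicle, 175 and 163 CPM with DHT (log2 difference 0.24 ± 0.048, adjusted p = 0.000968) and 129 and 129.99 CPM with enzalutamide (log2 difference -0.14 ± 0.048, adjusted p = 0.0398). NRF1 rose with enzalutamide at 4 h (0.38) and 24 h (log2 difference 0.45 ± 0.056, adjusted p = 4.47e-05) and in siControl cells (log2 difference 0.43 ± 0.065, adjusted p = 0.000348), and its enzalutamide effect was lower by 0.44 in siGATA2 cells (adjusted p = 0.00566 for the difference). ESRRA, an estrogen-related receptor, rose with DHT for 24 h (log2 difference 0.27 ± 0.064, adjusted p = 0.00364) and was lower in siGATA2 cells with vehicle (log2 difference -0.32 ± 0.060, adjusted p = 0.000992). PPARGC1A, the PGC-1α coactivator, stayed under 0.28 RPKM in all siRNA libraries, and its fall with enzalutamide in siControl cells (log2 difference -0.73 ± 0.12, adjusted p = 0.000852) is at that low level. PPRC1, a PGC-1 relative, rose with DHT (log2 difference 0.60 ± 0.056, adjusted p = 1.32e-06) and fell with enzalutamide (log2 difference -0.28 ± 0.057, adjusted p = 0.00208) at 24 h.

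Complex assembly factors and the mitochondrial ribosome, which translates the subunits encoded by mitochondrial DNA, were counted as well. Of 47 assembly factors, 22 were higher and 7 lower with DHT for 24 h, and 1 was higher and 11 lower with enzalutamide, or 61.7% called against 50% of all genes and 25.5% against 33.4%. PET117, an assembly factor of complex IV, stood at 22 and 21.8 CPM with vehicle, 31.1 and 31 CPM with DHT and 19.5 and 18.4 CPM with enzalutamide, and the ligands differed by 0.71 ± 0.051, adjusted p = 4.5e-08. Of 78 mitochondrial ribosomal protein genes, 49 were higher and 2 lower with DHT, 40 were lower and none higher with enzalutamide, and the direct comparison gave 65 higher and none lower with DHT. These are 65.4% called against 50% of all genes, 51.3% against 33.4% and 83.3% against 64.9%. Their medians were 0.18, -0.14 and 0.30, against 0.020, -0.046 and 0.097 for the subunits. In siGATA2 cells with vehicle 11 ribosomal genes were higher and 39 lower (median -0.11), or 64.1% called against 55.6% of all genes. Under enzalutamide 27 were higher and 26 lower (median 0.019), or 67.9% against 54.5%. With vehicle MRPL17, of the large ribosomal subunit, fell from 29.1, 28.6 and 29.99 RPKM in siControl cells to 7.23, 7.83 and 7.31 RPKM in siGATA2 cells (log2 difference -1.96 ± 0.036, adjusted p = 6.49e-11). Of the 47 assembly factors, 16 were higher and 18 lower in siGATA2 cells with vehicle (median -0.047), or 72.3% called against 55.6% of all genes. Under enzalutamide 17 were higher and 13 lower (median 0.051), or 63.8% against 54.5%. Among them NDUFAF4, of complex I assembly, rose from 7.57, 6.92 and 6.53 RPKM in siControl cells to 18, 18.6 and 21.2 RPKM in siGATA2 cells with vehicle (log2 difference 1.44 ± 0.076, adjusted p = 6.36e-08). No test compared these lists with the subunits.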

How the data were processed

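Total polyadenylated RNA of LNCaP cells was sequenced from stranded libraries. For the ligand experiment the authors aligned reads to hg19 with TopHat2 (2.0) and quantified genes in Partek, and the deposited values are estimated counts, which were rounded to whole numbers. For the siRNA experiment the deposited values are RPKM, normalized by the authors for gene length and library size, and the read depth is unknown. The tools of each step are named as in the submitters' processing notes.

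The labels list 4 biological replicates of vehicle. Of the 4 vehicle columns, 3 carry replicate 1 in their headers, and their counts differed less from each other (mean chi-square 1.53 to 1.56 per gene) than from the other column (3.56 to 3.74), so they were taken as runs of 1 replicate and summed, which is an assumption. Library totals were 38894876 to 59985287. Ligand counts of 10 libraries in 5 conditions were fitted in edgeR 4.0.16 (quasi-likelihood test, TMM, filterByExpr, 15555 genes). RPKM of 12 libraries in 4 conditions were fitted in limma 3.58.1 with a trend on log2(RPKM + 0.1), for 20369 genes above 0 in at least 3 libraries. A fold change on that scale understates the change of low genes. P-values were adjusted by Benjamini-Hochberg over all genes tested, and 0.05 was the threshold. The labels call the replicates biological without saying what separated them, so p-values measure the spread between these libraries. With 2 libraries against 2, an exact permutation test cannot go below p = 0.333, and with 3 against 3 not below 0.1, so none was used for single genes.

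The fits were tested on simulated data. DESeq2 1.42.0, other scalings, filters and pseudocounts, the study's call of over 2-fold at an unadjusted p below 0.05, a replicate block and each library left out were run as alternatives. Many of the 11 comparisons share libraries within an experiment, and every comparison of a ligand with vehicle in the ligand experiment uses the same vehicle libraries. Libraries with the same replicate number deviated together, with every correlation above 0.1 (0.113, 0.241 and 0.148), for 1 pair of conditions, the enzalutamide-treated siControl and siGATA2 cells, where the pairing comes from the numbers in the labels.

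The members, gene lists and the rule for the 25 members named were chosen with earlier results of these data known. The rule took, for each experiment and complex, the 2 members with the lowest adjusted p in any comparison against vehicle or siControl, the 4 SDH genes, isoforms of restricted tissues (COX6A2 and COX7A1 were not analysed here) and up to 3 members per comparison called against the majority. Of other lists it took up to 3 genes per experiment, and PPARGC1A, ESRRA, TFAM and NRF1. Some items were left out and are not reported here. Members outside the rule were chosen after their values were seen. Promoter windows came from RefSeq on GRCh38.p14, while the files use hg19, so no coordinates of the files were used. Figures were drawn with matplotlib 3.10.9.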

Additional observations from a re-analysis of the deposited data

Results flagged for a closer look

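The enzalutamide effect differed between siGATA2 and siControl cells, by limma's test of the difference itself, for 16 members, of which 15 are given. The difference, siGATA2 minus siControl on the log2 scale, was positive for ATP5MC1 (0.40), NDUFB3 (0.38), ATP5PF (0.33), COX7B (0.30), ATP5MF (0.28), NDUFV2 (0.23), ATP5MC3 (0.21), NDUFA6 (0.20), UQCRFS1 (0.17), NDUFS1 (0.13) and NDUFA9 (0.13). It was negative for COX7A2L (-0.49), NDUFS4 (-0.21), ATP5MC2 (-0.19) and NDUFB9 (-0.17). The adjusted p ran from 1.34e-05 for COX7A2L to 0.049 for NDUFS1.

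For other members both treated libraries lay on one side of both vehicle libraries at 4 h and on the other side at 24 h of the same ligand. None of these members was called at 4 h of that ligand, and the differences between times were not tested. The enzalutamide libraries came from set ZC2 at 4 h and from ZC3 at 24 h. The DHT libraries came from ZC1 at 4 h and from ZC2 and ZC3 at 24 h. Time and set therefore cannot be told apart in these differences. The enzalutamide effect at 24 h minus that at 4 h was -0.14 for ATP5PO, -0.14 for NDUFB6 and -0.053 for UQCRC2. The DHT effect at 24 h minus that at 4 h was 0.29 for NDUFS8, 0.26 for NDUFV3, 0.24 for NDUFB7, 0.19 for ATP5ME, 0.10 for COX6B1 and 0.074 for UQCRQ. It was -0.14 for ATP5PO, -0.12 for COX7C and -0.12 for NDUFA5.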

How the results depend on the processing

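With the study's call of over 2-fold, 0 members were called with enzalutamide at 4 h and 24 h, with DHT at 24 h, between DHT and enzalutamide at 24 h, with enzalutamide in siControl cells and for the difference of its effects, and 1 with siGATA2 in vehicle and 1 under enzalutamide. At 4 h of enzalutamide the count was 0 with a replicate block, 2 with 4 vehicle columns as separate samples and 0 with the vehicle column of the same set. At 24 h the vehicle column of the same set gave 11 in place of 26. Without a filter on low counts 1 member was called with DHT at 4 h. The replicate block gave 10 in place of 16 for the difference of the enzalutamide effects and, under enzalutamide, 49 in place of 52 for siGATA2 against siControl, where it ended the call of UQCRFS1. The cause of these changes was not tested.

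Leaving out each library gave 0 to 1 members with enzalutamide at 4 h, 14 to 34 at 24 h, 0 to 1 with DHT at 4 h, 9 to 20 at 24 h, 37 to 54 between the ligands at 24 h and 0 to 1 at 4 h. In siRNA cells it gave 23 to 33 with enzalutamide in siControl, 0 in siGATA2, 44 to 57 with siGATA2 in vehicle, 43 to 54 under enzalutamide and 7 to 15 for the difference of the effects. Of 94 calls of named members, 64 held in every alternative and none reversed. With 2 ligand libraries a group and RPKM without depth, small changes stay uncertain.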

Other observations

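Of 13 citric acid cycle genes, 4 were higher and none lower with DHT for 24 h, and 4 were lower and none higher with enzalutamide. This is 30.8% called with each ligand, against 50% of all genes with DHT and 33.4% with enzalutamide. CS, citrate synthase, stood at 417 and 414 CPM with vehicle, 493 and 469 CPM with DHT and 392 and 385 CPM with enzalutamide, and differed by 0.31 ± 0.033, adjusted p = 2.28e-06 between the ligands in edgeR. In siGATA2 cells 7 cycle genes were higher and 4 lower with vehicle (84.6% called against 55.6% of all genes), and 7 higher and 3 lower under enzalutamide (76.9% against 54.5%). With vehicle IDH3G, a regulatory subunit of isocitrate dehydrogenase, went from 31.2, 28.8 and 32.1 RPKM in siControl cells to 47, 46.9 and 45.9 RPKM in siGATA2 cells (log2 difference 0.60 ± 0.034, adjusted p = 1.23e-07). DLST, of the oxoglutarate dehydrogenase complex, went from 40.4, 36.9 and 37.5 RPKM to 23.6, 24.4 and 24.9 RPKM in the same comparison (log2 difference -0.65 ± 0.041, adjusted p = 2.44e-07).

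Of 15 tested genes of ubiquinone synthesis, cytochrome c and adenine nucleotide exchange, 6 were higher and 2 lower with DHT for 24 h, or 53.3% called against 50% of all genes. PDSS1, which makes the ubiquinone side chain, differed between the ligands, with 10.7 and 11.1 CPM with vehicle, 18 and 18.6 CPM with DHT and 7.26 and 7.4 CPM with enzalutamide (log2 difference 1.32 ± 0.077, adjusted p = 5.81e-09). CYCS, cytochrome c, which carries electrons from complex III to complex IV, stood at 423 and 398 CPM with DHT and 281 and 281 CPM with enzalutamide (log2 difference 0.54 ± 0.040, adjusted p = 6.45e-08). In siGATA2 cells 4 of these genes were higher and 8 lower with vehicle (median -0.13, 80% called against 55.6% of all genes), and 7 higher and 5 lower under enzalutamide (median 0.16, 80% against 54.5%). CYCS was lower in siGATA2 cells with vehicle (log2 difference -0.38 ± 0.055, adjusted p = 0.000159) and higher under enzalutamide (log2 difference 0.16 ± 0.055, adjusted p = 0.0286). SLC25A5, an ATP/ADP carrier of the inner membrane, was lower in both (log2 difference -0.60 ± 0.031, adjusted p = 5.4e-08 with vehicle and -0.73 under enzalutamide).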
